A study of Daphnia magna with 24 samples.

Results

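Water collected upstream of Greenhorn Mine was given to the water flea Daphnia magna, and the RNA of these animals was compared with that of unexposed laboratory animals. The upstream data are the 6 arrays, of 24 in the series, whose exposed channel is labelled as the upstream sample. They make up 3 exposures of 2 arrays each, chosen by their labels alone. Adult females aged 14 to 16 days were held for 24 h at 23.5 °C, and each exposure pooled 10 to 15 whole animals from a genetically homogeneous culture. Unexposed animals lived in COMBO, a defined culture medium, so stream water and laboratory medium differ in every such ratio along with whatever the mine adds. The other 18 arrays hold 9 exposures to water taken at the entry of the mine drainage and at positions called downstream 1 and downstream 2, together called mine-water exposures here.

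Daphnia magna is a freshwater crustacean that reproduces clonally in culture and is widely used to test the toxicity of metals in water. Copper is a cofactor of many enzymes, is taken up through the body surface and the gut, and damages proteins and membranes when in excess. Per the design text, copper varied from site to site, but no source used here gives concentrations. Water from above the mine shows how far expression in field water departs from that in COMBO before drainage enters.

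Each value is a log ratio of exposed and unexposed RNA on a 2-colour cDNA array, taken as log2, although its base is not given. A value of 1 then stands for a 2-fold ratio. Exposed over unexposed is the likely direction, because the design text compares field samples with the control, but no source states it, so values are called positive or negative. The dye difference of an exposure (its Cy5 array, named for the dye of the exposed RNA, less its Cy3 array, over 2) had a positive correlation in all 66 pairs of exposures of the series (r from 0.28 to 0.757), so all exposures run the same way. Arrays of the same dye orientation had r of -0.255 to 0.828 over 132 pairs. Features carry array IDs only, none of 7680 of which matched a table of Daphnia magna genes, so no gene can be named. The IDs start with A (2688 features in 7 numbered groups) or P (4992 in 13 groups), and the sources used here do not say what the letters stand for.

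No feature passed the test of upstream against unexposed animals. Of 7075 features measured in 2 or 3 of the exposures, 0 (0%) passed a Benjamini-Hochberg adjusted p of 0.05 in limma, and the lowest adjusted p was 0.98. At an unadjusted p under 0.05 there were 83, or 1.17%, a share smaller than that level itself. The median feature lay 0.11 from 0 on the log2 scale. The median 95% interval extended 0.42 each way, without allowance for multiple testing. For 5881 features (83.1%) the whole interval lay within 1 of 0, a range of 2-fold either way, and for 3194 (45.1%) within 0.5. For 566 features (8%) the interval extended more than 1 each way from the feature's own mean. A mean of 1 could not be told from 0 there, even without adjustment. A narrower interval did not ensure a call, as none of the 77 features with a mean at least 1 from 0 passed. The labels do not say whether the exposures were separate cultures or shared control RNA, so these p-values measure the spread between 3 exposures, which may be technical.

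Few features held the same sign on every upstream array. Of 6405 features with a value on all 6 arrays, 225 (3.51%) did so, 134 positive and 91 negative. The mean was at least 0.5 from 0 in 27 of them and at least 1 in 4. Of all 7075 features tested, 77 had a mean at least 1 from 0. P13CC1 had the lowest p among the 134 positive features. It had 2.15 and 0.38 on the Cy5 and Cy3 arrays of exposure 1, 1.18 and 0.81 in exposure 2, and 0.03 and 0.67 in exposure 3. Its mean was 0.87 ± 0.47 (SD, n = 3; limma adjusted p 0.98), so it was positive in 3 of 3 exposures, with 1 array near 0. It averaged 0.05 ± 0.22 over the 9 mine-water exposures (SD).

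P12AC5 was positive and less variable, at 0.84, 0.32 and 0.52 in exposures 1, 2 and 3, a mean of 0.56 ± 0.26 (SD, n = 3; limma adjusted p 0.98). Among the negative features A7I8 had -0.19, -0.45 and -0.63 in exposures 1, 2 and 3, and a mean of -0.42 ± 0.22 (SD, n = 3; limma adjusted p 0.98). One of its arrays, that with Cy5 in exposure 1, stood at -0.01. A2D3 had -2.03, -0.85 and -0.44 in exposures 1, 2 and 3, a mean of -1.10 ± 0.83 (SD, n = 3; limma adjusted p 0.98). The mean of A2D3 was -1.64 over the Cy5 arrays and -0.56 over the Cy3 arrays, and -0.64 without exposure 1. For A7I8 it was -0.59 over the Cy5 and -0.26 over the Cy3 arrays. Exposure 1 was lowest for A2D3 and highest for both positive features.

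Most of the large log ratios upstream belonged to single exposures, but some features had them in more than 1. A value of at least 1 to the same side on both arrays was found for 105 positive and 67 negative features in exposure 1, and for 33 positive and 328 negative ones in exposure 2. In exposure 3 there were 5 positive and 3 negative. No feature reached that size with the same sign in all 3 exposures. Exposures 1 and 2 shared 21 negative features, which is 31.3% of those of exposure 1 and 6.4% of those of exposure 2. Of all features measured on both arrays, 0.97% were negative at that size in exposure 1 and 4.69% in exposure 2. Exposures 1 and 2 also shared 1 positive feature. Negative at that size in exposure 2 were also 2 of the 105 positive in exposure 1 and 4 of the 5 positive in exposure 3. The 328 features negative in exposure 2 had a median of -1.68 there, against -0.34 in exposure 1 and 0.28 in exposure 3. The 105 positive in exposure 1 had a median of 1.69 there, -0.06 in exposure 2 and -0.21 in exposure 3. These lists were chosen on the exposure in which they are large, so their medians only describe them.

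Features whose IDs start with A carried most of these large values, though not in every list. They made up 404 of the 513 features (78.8%) that reached 1 on both arrays of any upstream exposure, and 301 of the 328 negative in exposure 2. They also made up 77 of the 105 positive and 43 of the 67 negative in exposure 1, and 3 of the 5 positive in exposure 3. They were only 6 of the 33 positive in exposure 2 and 0 of the 3 negative in exposure 3. Among all features they were 2688 of 7680, and 2185 of the 7000 measured in exposure 2. The comparison by ID letter was chosen after the values were seen and is given without a test. The SD of the log ratio across A features was 0.71 in exposure 1, 0.68 in exposure 2 and 0.23 in exposure 3. Across P features it was 0.43, 0.34 and 0.22. Only in exposure 3 were both kinds about as narrow. The median A feature stood at 0.12, -0.25 and 0.05 in exposures 1, 2 and 3, and the median P feature at -0.05, 0.10 and -0.03. Both arrays of exposure 2 gave the low A median, -0.36 with exposed RNA in Cy5 and -0.27 in Cy3.

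**Figure D1:**
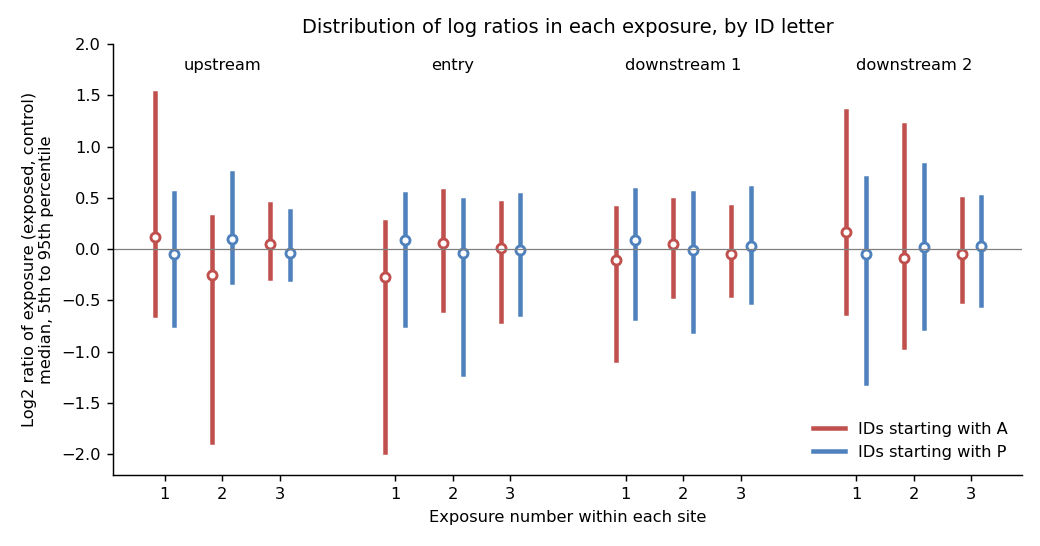
Median (circle) and 5th to 95th percentile (bar) of log2 ratios in each of 12 exposures, for features with IDs starting with A or P; exposure numbers run along the x axis within each site. The A features of upstream exposure 2 have a median of -0.25, and those of upstream exposure 3 span a narrow range around 0.05.

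Low A features were also seen in some mine-water exposures. The median A feature was at -0.28 in entry exposure 1 and -0.11 in downstream 1 exposure 1, and the other 7 mine-water exposures lay between -0.08 and 0.16. The 328 features negative in upstream exposure 2 had medians of -1.70 in entry exposure 1, -0.95 in downstream 1 exposure 1 and -0.73 in downstream 2 exposure 2, and 0.71 in downstream 2 exposure 1. In the other 5 mine-water exposures they lay between -0.19 and 0.22. Whether those exposures shared control RNA or a day of work is not given in the labels, and the part of either in these values was not tested.

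A few features show how far the exposures parted. Among those with a value on all 6 arrays they have the widest range, 2 of those whose outlying exposure was the low one (A4H5 and A6A19) and 2 of those in which it was the high one (A4P8 and A6L19). A4H5 had -4.34 and -5.09 on the Cy5 and Cy3 arrays of exposure 1, -1.33 and -0.73 in exposure 2, and -0.52 and 0.34 in exposure 3. A6A19 was also low in exposure 1, at -3.80 and -4.29, while exposure 2 had 0.31 and 0.13 and exposure 3 had 0.22 and 0.36. A4P8 and A6L19 were lowest in exposure 2, with exposure 3 farthest from the middle value. A4P8 had -1.94 and -1.93 in exposure 1, -3.24 and -3.09 in exposure 2, and 0.36 and 0.62 in exposure 3. A6L19 had means of both arrays of -1.47, -3.21 and 0.45 in exposures 1, 2 and 3. The range over exposures was 3.65 to 4.63 in these features, wider than the gap between the arrays of any of the exposures. The means were -1.94 ± 2.45 for A4H5, -1.18 ± 2.48 for A6A19, -1.54 ± 1.86 for A4P8 and -1.41 ± 1.84 for A6L19 (SD, n = 3), none of which passed limma (adjusted p 0.98 each).

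**Figure D2:**
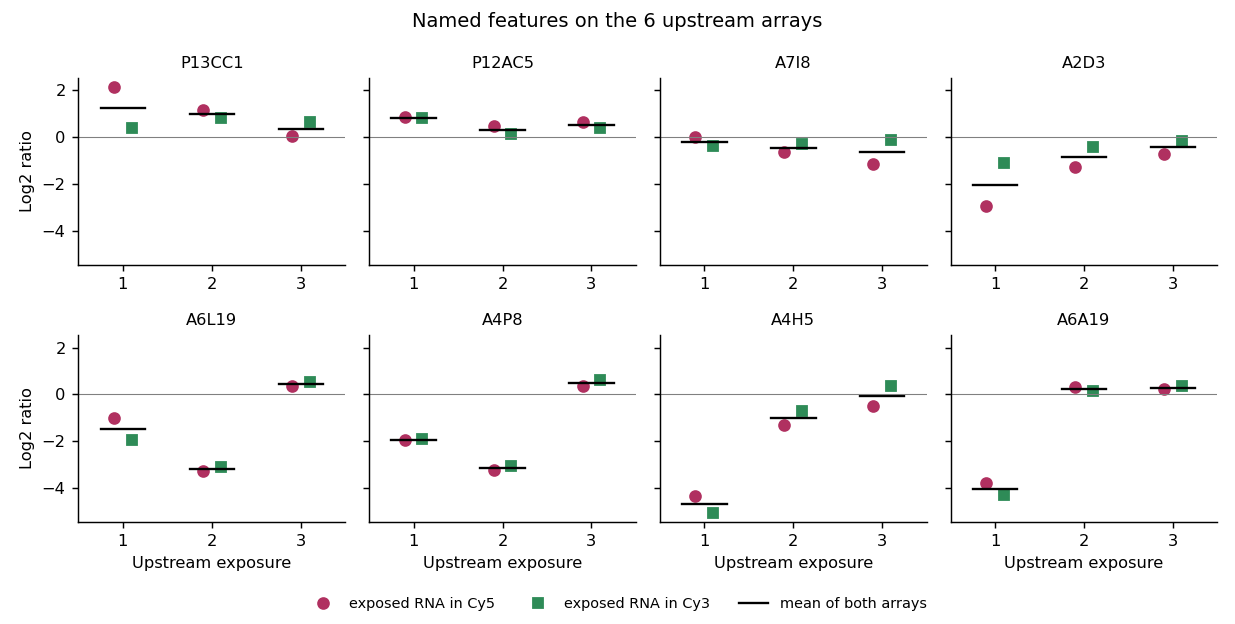
Log2 ratios (y axis) of 8 named features on the 6 upstream arrays, by exposure (x axis), with a line at the mean of both arrays. The upper row shows the features of lowest p with the same sign on all arrays and the lower row those of widest range with a low or a high outlying exposure, such as A4H5 with -4.34 and -5.09 in exposure 1.

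Both arrays of an exposure carry the same RNA, and they repeated each other unevenly. Over features tested at all sites, their r was 0.37, 0.658 and 0.155 in upstream exposures 1, 2 and 3, against 0.555 to 0.815 with a median of 0.663 in the 9 mine-water exposures. Upstream averaged 0.394 ± 0.253 (SD, n = 3) and mine water 0.681 ± 0.093 (SD, n = 9). The difference of -0.287 had an exact permutation p of 0.045 (two-sided), or 0.091 after adjustment over the 2 values tested in this way, and so did not pass. The smallest p that 3 against 9 allow is 0.0091. Over all features with a value on both arrays, r averaged 0.483 upstream and 0.487 in mine water among A features. Among P features it averaged 0.239 upstream and 0.682 in mine water. This split by ID letter was not tested. Exposure 3 had both the lowest agreement and the narrowest values. The other value tested, the median size of an exposure's log ratios, was 0.201, 0.198 and 0.118 in upstream exposures 1, 2 and 3, against 0.118 to 0.238 with a median of 0.135 in mine water. Its difference of 0.016 did not pass (exact permutation p 0.55, adjusted 0.55).

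Upstream exposures did not rank features alike. Their correlations across features were 0.109 between exposures 1 and 2 (6577 features), -0.153 between 1 and 3 (6621) and -0.298 between 2 and 3 (6687). Among A features these were 0.373, -0.273 and -0.484, and among P features 0.064, -0.136 and -0.09. Features are not independent replicates, and control RNA may be shared, so these r values are descriptions only. The median feature's SD between upstream exposures was 0.247, which is 2.22 times the SD of 0.111 between the exposures' dye differences. That ratio came to 1.51 for entry, 1.57 for downstream 1 and 1.79 for downstream 2 water. An SD of at least 1 between upstream exposures was found for 234 of 1772 A features (13.2%) and 49 of 4633 P features (1.06%). Entry exposures had nearly the same shares, 200 of 1689 A features (11.8%) and 56 of 4551 P features (1.23%).

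**Figure D3:**
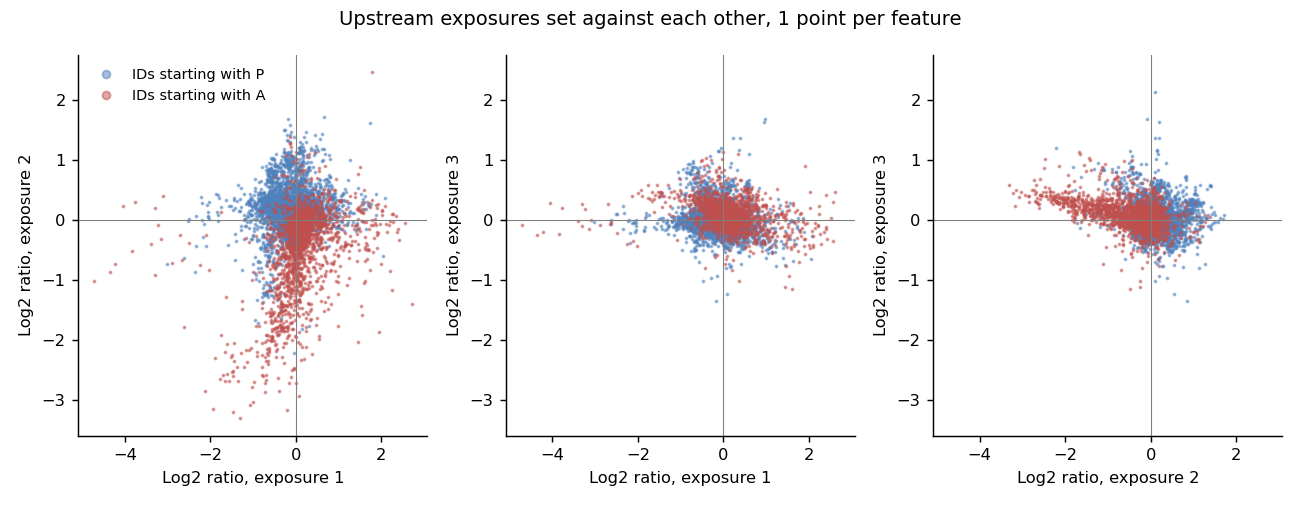
Log2 ratios of the upstream exposures against each other, 1 point per feature, in red for IDs starting with A and blue for P. Points do not gather along a rising diagonal, and the tail of A features low in exposure 2 lies slightly above 0 in exposure 3.

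A dye effect would show as a shared difference between arrays with exposed RNA in Cy5 and in Cy3. It had a median size of 0.14 upstream. Over the 3 upstream exposures alone, 0 of 7075 features (0%) passed limma's adjusted threshold for it (lowest adjusted p 0.0998). At an unadjusted p under 0.05 there were 2131 of the 7075, a share well above that level itself. The count of 0 therefore does not show that the effect was absent. Over all features, the dye differences correlated at 0.395 to 0.51 between upstream exposures, and the averaged log ratios at -0.298 to 0.109. Averaging both arrays removes this effect from the values above.

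Upstream and mine-water exposures were next set against each other, which asks where water from above the mine departs from the rest. The limma fit of all 12 exposures called 195 of 6691 features (2.91%), 110 with upstream above and 85 with upstream below the mean of the mine-water sites. Upstream lay nearer to 0 than mine water in 193 of the 195. The median size of their mean was 0.15 upstream and 1.19 in mine water, and 181 had an upstream mean within 0.5 of 0. Over all features tested, the median size was 0.11 upstream and 0.11 in mine water. The share of all features nearer to 0 upstream, or within 0.5 of it, was not counted, so these counts only describe the calls. The calls held 42 of 1905 A and 153 of 4786 P features tested. The typical feature spread more widely between exposures upstream and the fit pools the spread of all sites, so for features with that wider spread its p-values are too small. With 1 lower weight for all upstream exposures, set from their spread over all features, 65 features passed, with array weights 74, with Cy3 arrays alone 92, and without upstream exposure 1 or 2 only 59 or 60.

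P8BE5 lay furthest below mine water. It had 0.20, 0.22 and 0.13 in upstream exposures 1, 2 and 3, a mean of 0.18 ± 0.04 (SD, n = 3), against 2.51 to 4.91 with a mean of 3.61 ± 0.83 in mine water (SD, n = 9). The difference was -3.43 (SE 0.49, limma adjusted p 0.006). Features named for this comparison were picked among calls whose upstream and mine-water exposures do not overlap, as in 193 of the 195. The share of all features without overlap was not counted, so the 193 only describe the calls. P3CB12 had 0.17, 0.23 and 0.22 upstream, against 2.43 to 4.76 in mine water, a difference of -3.42 (SE 0.47, limma adjusted p 0.0052). The exposures of P8BE5 and P3CB12 agreed more closely upstream than at any mine-water site, with a range of 0.08 and 0.06 between exposure means. Single arrays lay further apart, and those of P3CB12 in exposure 1 read 0.49 and -0.15.

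P13DA2 and P13CD12 lay above mine water. P13DA2 had -0.49, 0.79 and 0.13 in upstream exposures 1, 2 and 3, against -4.26 to -1.48 in mine water, a difference of 2.67 (SE 0.53, limma adjusted p 0.026). That call was lost without any 1 of the upstream exposures (2.35 to 2.99), with Cy3 arrays alone (2.73), with array weights (2.62) and with the lower upstream weight (adjusted p 0.11). P13CD12 had 0.29, 0.81 and -0.27 upstream, against -3.11 to -1.57 in mine water, a difference of 2.54 (SE 0.32, limma adjusted p 0.0043). Upstream values of both features fell on either side of 0. Lack of overlap with mine water was a condition of their choice.

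**Figure D4:**
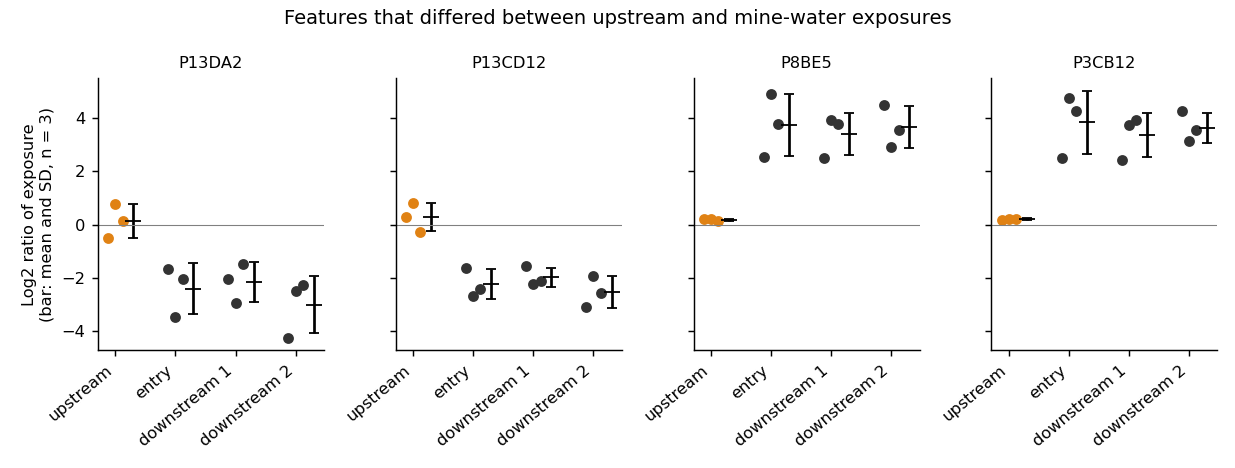
Log2 ratio (y axis) of 4 named features in each exposure of the upstream site (orange) and the mine-water sites (dark), with mean and SD beside the points (n = 3 per site). Upstream points stay between -0.49 and 0.81 while mine-water points lie beyond -1.48 or 2.43.

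Features that move with mine water were then followed upstream. The 9 mine-water exposures, fitted without upstream, called 1441 of 6769 features (21.3%) against control. Those with a mean of at least 1 to either side form a positive list of 80 (1.18%) and a negative list of 147 (2.17%). The median of the positive list was 0.01, 0.10 and 0.24 in upstream exposures 1, 2 and 3, against 1.27 to 1.91 in the mine-water exposures. Within 0.5 of 0 were 68 of 76, 68 of 75 and 59 of 78 measured members in upstream exposures 1, 2 and 3, beside 77.6%, 80.1% and 95.9% of all measured features. Exposure 3, the narrowest exposure, had the highest positive median, and 19 of its members were at 0.5 or above, beside 3.18% of all features.

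The negative list had medians of -0.07, 0.58 and -0.06 in upstream exposures 1, 2 and 3, against -1.80 to -0.72 in mine water. In exposure 2, 80 of 146 measured members were at 0.5 or above and 6 at -0.5 or below, so features negative in mine water were mostly positive there, while 7.69% of all features were at 0.5 or above. At 0.5 or above were 2 of 145 in exposure 1 and 2 of 146 in exposure 3, beside 10.5% and 3.18% of all features. At -0.5 or below were 28 of 145 in exposure 1 and 13 of 146 in exposure 3, beside 11.9% and 0.93% of all features. Averaged over exposures, the list medians were 0.12 ± 0.12 for the positive and 0.15 ± 0.37 for the negative list upstream (SD, n = 3). Over all features tested upstream the median was -0.01. The upstream mean was above 0 for 62 of 78 tested members of the positive list (79.5%) and 96 of 147 of the negative list (65.3%), beside 46.6% of all features tested. In the upstream test 2 of 78 positive-list and 0 of 147 negative-list members had an unadjusted p under 0.05, beside 1.17% of all features. Control RNA may be shared between upstream and mine-water arrays, so no test is given for these lists.

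**Figure D5:**
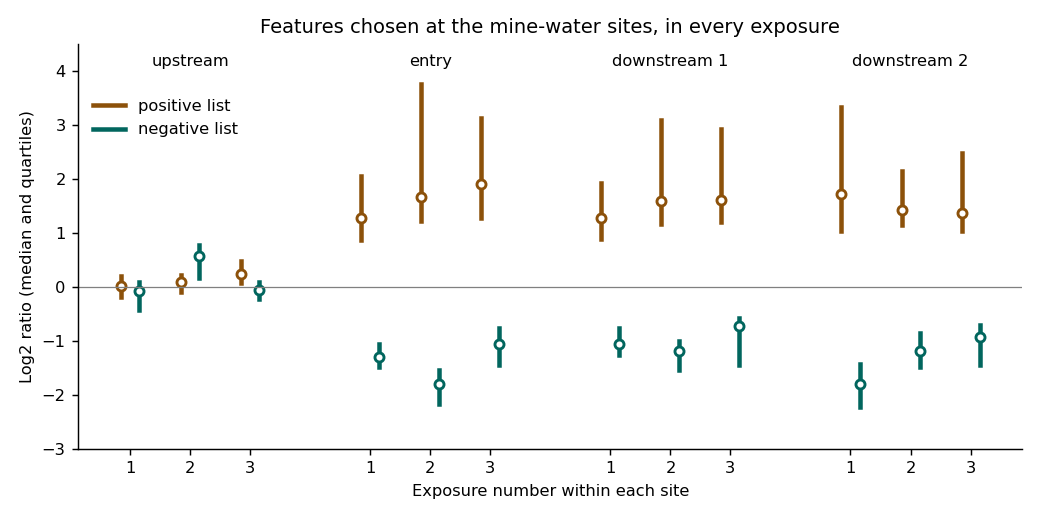
Median (circle) and quartiles (bar) of log2 ratios for the 80 positive and 147 negative features chosen at the mine-water sites, in each exposure (x axis, by site). Upstream medians lie between -0.07 and 0.24 except for the negative list in exposure 2, at 0.58.

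The members with the highest upstream mean in the positive list and the lowest in the negative list differed between dye orientations. P4CB5 of the positive list had an upstream mean of 1.12 (n = 2), from 0.09 in exposure 2 and 2.14 in exposure 3. In exposure 3 its arrays read 0.29 with exposed RNA in Cy5 and 3.98 in Cy3, and exposure 1 lacked a value on 1 array. Its mean was 0.37 over the Cy5 and 1.32 over the Cy3 arrays. Its mine-water exposures ranged from 2.48 to 5.18. A5F10 of the negative list had 0.03, -1.12 and -0.73 in upstream exposures 1, 2 and 3, a mean of -0.61 ± 0.58 (SD, n = 3), against a mine-water mean of -1.02 ± 0.49 (SD, n = 9). Its arrays read 0.23 and -0.17 in exposure 1, -1.01 and -1.22 in exposure 2, and 0.22 and -1.68 in exposure 3. The mean of A5F10 was -0.19 over the Cy5 and -1.02 over the Cy3 arrays, and -0.92 and -0.35 without exposures 1 and 2. Neither passed the upstream test (limma adjusted p 0.98 each).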

How the data were processed

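The authors deposited a log ratio per feature and array, read here as log2. Per the labels' protocols, aminoallyl-labelled cDNA was dyed with Cy3 or Cy5, with dyes exchanged between the arrays of an exposure. The authors' scanner, background correction, filters, normalization, log base and direction were not given in the sources used here. Upstream arrays had 7015 to 7317 values and medians between -0.0156 and 0.01 as deposited, so they were centred or nearly so. No intensities were used here, and the number of exposures limits the precision.

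Arrays were median-centred, and an exposure's value is the mean of its 2 arrays, both needed. Upstream means were tested against 0 from the 3 upstream exposures alone, with lmFit and eBayes (limma 3.58.1, R 4.3.3; 2 residual and 2.01 prior degrees of freedom). Upstream minus the equal mean of 3 mine-water sites was a contrast in the fit of 12 exposures, over features measured in 2 or more exposures of each site. Benjamini-Hochberg adjusted p under 0.05 counted as passing. If control RNA was common, tests against 0 leave out its own spread. Steps were tested on simulated data. Single values per exposure were compared by exact permutation (scipy 1.17.1). Figures used matplotlib 3.10.9.

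Named features are at most 2 positive and 2 negative per comparison. Against control, where none passed, they had the lowest p among those with the same sign on all 6 arrays. Against mine water they had the largest differences among passing features without overlap, and for spread the widest range of exposure means, 2 with the exposure farthest from the middle one high and 2 with it low. Of each mine-water list, the member with the highest or the lowest upstream mean was named. Features, lists and tests were chosen with earlier results of these data known. Alternatives changed centring, scaling, filters, averaging, dye orientation, weights, samples fitted and the replicate block.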

Additional observations from a re-analysis of the deposited data

Results flagged for a closer look

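The response to water against control differed between upstream and the mine-water sites in 195 features by the limma contrast. In P8BE5 and P3CB12 upstream minus mine water was -3.43 and -3.42, and in P13DA2 and P13CD12 it was 2.67 and 2.54. They were chosen for the largest differences among calls whose 3 upstream and 9 mine-water exposures do not overlap. Of the 195, 65 passed when all upstream exposures had 1 lower weight, set from their spread over all features. P8BE5, P3CB12 and P13CD12 were among these and P13DA2 was not.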

How the results depend on the processing

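The count of 0 against control stayed 0 in all 14 alternatives run, with 11 to 461 features at an unadjusted p under 0.05. The 11 were among 2185 A features fitted alone. In the fit of all 12 exposures (461 of 6691) and with Cy5 arrays alone (433 of 7268) the share exceeded that level. The count for the dye effect also stayed 0 in its 4, with 1019 to 2263 features at an unadjusted p under 0.05. The 195 features of upstream minus mine water became 92 with Cy3 arrays alone, 74 with array weights and 59 to 167 with an upstream exposure left out. Alternatives added after seeing the data gave 65 with a lower weight for upstream exposures. A features fitted alone gave 31, beside 42 A features among the 195. P features fitted alone gave 190, of which 153 were among the 195. The cause of these changes was not tested. The exposure number as a replicate block gave 201, of which 151 were among the 195. Same-numbered deviations from the site means correlated between upstream and downstream 2 at 0.444, 0.569 and 0.131 for numbers 1, 2 and 3. With the entry the lowest was -0.646 and with downstream 1 -0.457, so the numbers do not pair the sites together, and 2 of 3 upstream exposures matched their own number best at downstream 2 and 1 of 3 at each other site. The permutation results kept their direction and their side of the threshold in every alternative run, as did the mine-water count of 1441 (1381 and 1497).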

Other observations

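Within the A features of upstream exposure 2, all 7 ID groups had a median below 0, from -0.58 in group A4 to -0.11 in group A6, while all 13 P groups were above 0. Exposure 1 ran the other way, with all 7 A groups above 0 and 12 of 13 P groups below. Exposure 3 had 6 of 7 A groups above 0 and 13 of 13 P groups below. Group A7 had the widest spread in exposures 1 and 2, with SDs of 0.90 and 0.84. Features left out of the upstream test for missing values were 503 of 2688 with an A (18.7%) and 102 of 4992 with a P (2.04%). Of those tested, the 95% interval lay within 1 of 0 for 67.4% of A and 90.1% of P features. Of 77 features with an upstream mean at least 1 from 0, 71 were A features, beside 2185 A features among the 7075 tested. None of the 77 passed the adjusted threshold.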
